A study of Danio rerio with 37 samples.

Results

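The genes described here encode the SR proteins and core proteins of the zebrafish spliceosome. They were chosen by name, as every gene whose symbol in the deposited expression tables begins with srsf, snrp, snrnp, sf3a, sf3b, u2af or prpf, with letter case ignored. The rule found 61 gene IDs under 60 symbols among 32520 genes, and the symbol srsf3a carried 2 IDs. Of the 61, 58 had enough reads to be tested, and snrpd3, srsf7b and the second srsf3a ID did not.

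The spliceosome removes introns from precursor mRNA. Its small nuclear ribonucleoproteins (snRNPs) each combine a small RNA with a ring of proteins and with proteins of their own. The ring is of Sm proteins, except on U6 RNA, where it is of LSm proteins. U1 binds the 5′ splice site, and SF3A, SF3B and U2AF bring U2 to the branch point and the 3′ splice site. The U4/U6.U5 tri-snRNP then joins before catalysis. SR proteins bind exonic enhancers with their RNA recognition motifs and, through arginine- and serine-rich domains, help to recruit U1 and U2AF. In the early zebrafish embryo many of these mRNAs are supplied by the mother, and splicing of the embryo's own transcripts begins with activation of the zygotic genome.

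The series measured RNA from whole zebrafish embryos at 6 hours post fertilization (hpf) after knockdown with 3 CRISPR effectors that target RNA: RfxCas13d and DjCas13d, both of the Cas13d family, and Cas7-11. Each effector had knockdown and control embryos at 10 pg and at 50 pg of GFP, which makes 12 groups in 37 libraries. RfxCas13d had 2 knockdown and 3 control libraries at 10 pg, and 3 of each at 50 pg. DjCas13d had 3 knockdown and 3 control libraries at each dose, while Cas7-11 had 4 of each at 10 pg and 3 of each at 50 pg. The labels name GFP as what was dosed, whereas the series' design text speaks of miR-430, and neither says what the control embryos received or which strain was used. Nothing in the labels says whether replicates came from separate clutches or injections, so the p-values measure the spread between these libraries, which may be technical.

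Total RNA was sequenced to between 3944559 and 8034012 reads in genes for RfxCas13d, 5945891 and 7337941 for DjCas13d, and 17432069 and 23991611 for Cas7-11. Genes of the gastrula embryo were present in all 19 control libraries, among them tbxta, a mesoderm regulator, at 331 to 580 TPM and krt4, a keratin of the surface layer, at 1900 to 3681 TPM. GFP, in TPM (transcript abundance scaled for gene length and depth), was 99.7% and 98.1% lower in RfxCas13d knockdown embryos than in their controls at 10 and 50 pg. It was 99.5% and 99.3% lower with DjCas13d, and 80.4% and 76.2% lower with Cas7-11. In a limma fit of log2(TPM + 1) over all genes GFP passed an adjusted p of 0.05 with RfxCas13d and DjCas13d at both doses (largest adjusted p = 3.97e-08), and not with Cas7-11 (adjusted p = 0.157 at 10 pg and 1 at 50 pg), where an exact two-sided permutation test gave p = 0.0286 at 10 pg and 0.1, the smallest that 3 against 3 allows, at 50 pg. In 5 libraries the nuclear noncoding RNA malat1 exceeded 5000 CPM (reads scaled for depth), against at most 2272.3 CPM in the other 32. These were control replicates 1 and 3 of RfxCas13d at 10 pg, control replicate 1 of RfxCas13d at 50 pg, and knockdown replicates 1 and 2 of DjCas13d at 10 pg, and mitochondrial mRNAs took 5.03% to 9.65% of their reads, against 1.13% to 4.58% elsewhere.

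In control embryos the levels spanned a wide range. Over the 19 control libraries the highest mean was that of snrpb, which encodes the Sm ring proteins B and B′, at 2206 ± 558 TPM (SD, n = 19). The next 4 were all SR proteins: srsf3b at 1565 ± 254 TPM, srsf5a at 1283 ± 279 TPM, srsf1a at 1199 ± 197 TPM and srsf2a at 1164 ± 175 TPM. Their order was not the same in every library, since snrpb exceeded srsf3b in 16 of 19 and srsf3b exceeded srsf5a in 13 of 19.

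At the other end stood srsf7b, at 0.625 ± 0.532 TPM. PRPF4B, a kinase that phosphorylates PRPF proteins of the tri-snRNP in mammals, averaged 22.8 ± 15.0 TPM. The 3 proteins of the minor spliceosome, which removes the rare U12-type introns, followed: snrnp25 at 30.2 ± 5.67 TPM, snrnp48 at 38.5 ± 9.59 TPM and snrnp35 at 40.0 ± 9.35 TPM.

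By role, the median of the members' control means was 653 TPM for the Sm ring, 498 TPM for U1 and its associates, 373 TPM for the SR proteins and 344 TPM for U2 and U2AF. It was 152 TPM for the tri-snRNP, 91.5 TPM for the activation and catalytic-step factors and 38.5 TPM for the minor spliceosome proteins. The SR median is the mean of the second srsf3a ID (373 TPM), which had 0 reads in the count tables. The Sm median includes snrpd3, at 765 TPM but with 11 reads in all. The order among the Sm ring, U1, SR and U2 roles is therefore uncertain. Their medians were above that of the tri-snRNP, and the minor spliceosome had the lowest.

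**Figure D1:**
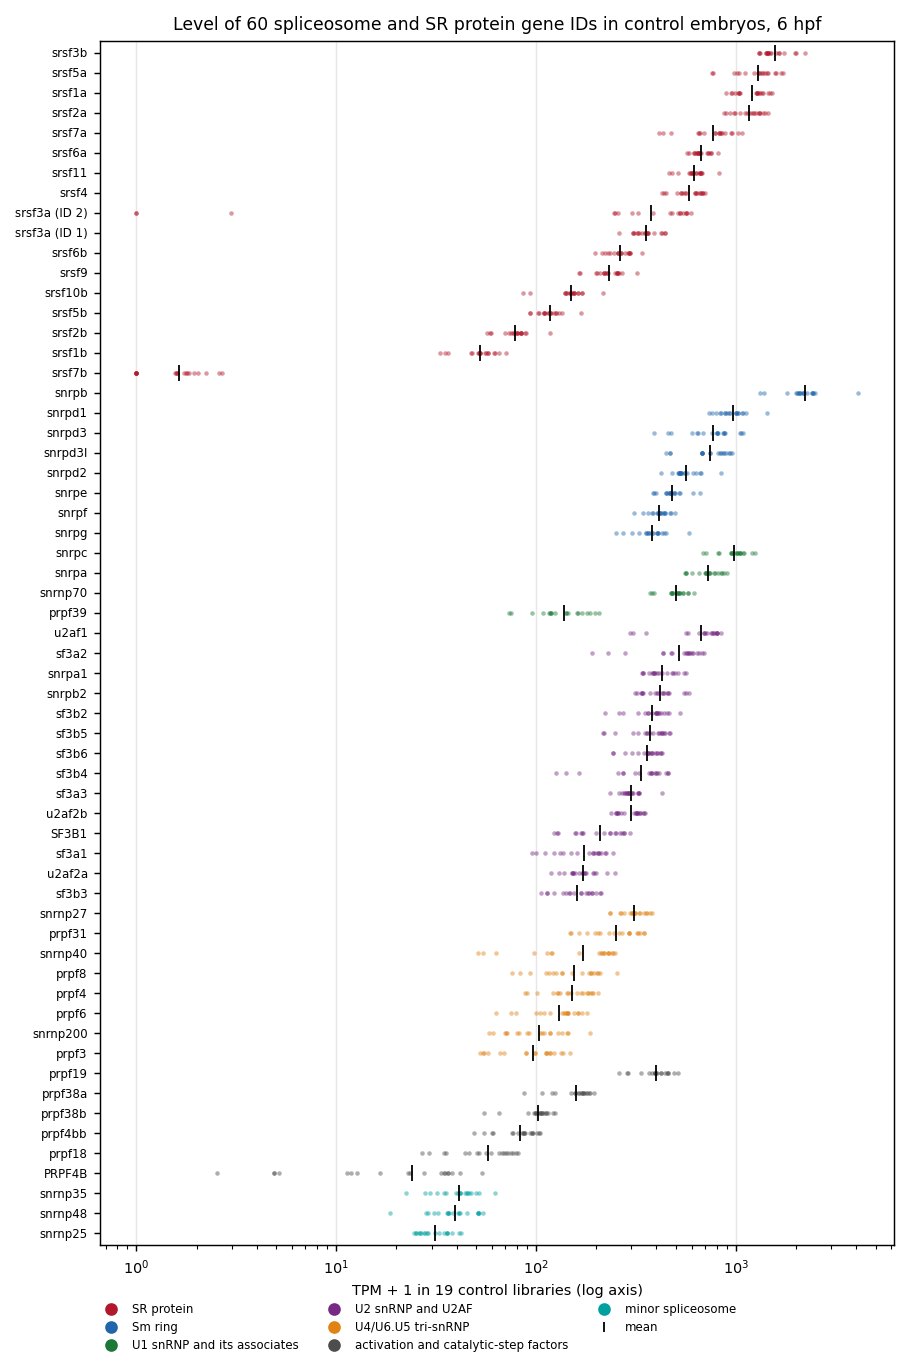
Level of 60 of the 61 gene IDs in the 19 control libraries, as TPM + 1 on a log axis, ordered within role by mean. Points are libraries and bars are means; snrpb has the highest mean (2206 TPM) and srsf7b the lowest (0.625 TPM), and srsf3a appears under its 2 IDs (ID 1 is the one tested), the second of which is listed near 0 in a few libraries.

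The coefficient of variation of TMM-scaled CPM within groups, pooled over the 12 groups, had a median of 14.8% over the members. It was lowest for sf3a3 (7.5%) and snrnp70 (8.7%). It was highest for PRPF4B (53.5%), snrnp40 (34.4%) and srsf3a (31.5%). PRPF4B had 4.39 to 14.1 CPM in the 5 malat1-rich libraries and 12.5 to 100 CPM in the other 32, and snrnp40 had 56.6 to 75.2 CPM against 74.1 to 217 CPM. The pooled values do not give the spread of single groups. In RfxCas13d knockdown embryos at 50 pg snrpf had 89.2, 30.9 and 33.7 CPM, whereas sf3a3 had 325, 275 and 246 CPM.

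Several gene pairs that arose from the fish genome duplication were unequal in the controls. The a copy was higher than the b copy in 19 of 19 control libraries for srsf1 (23.3-fold by mean TPM), srsf2 (15-fold), srsf5 (11.1-fold) and srsf6 (2.55-fold). For srsf3 and u2af2 the b copy was higher in all 19, with ratios of a to b of 0.227 and 0.572. The ratio of srsf3 takes the tested srsf3a ID alone, and is 0.465 with both IDs summed.

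For 3 members the count and TPM tables treat the gene differently. The Sm ring gene snrpd3 had 11 reads in all libraries together but a median of 762.1 TPM, and its near copy snrpd3l had 105726 reads and a median of 790.7 TPM. The second srsf3a ID, ENSDARG00000100815, had 0 reads in every count table, while its TPM ran from 0 to 620.3. The first, ENSDARG00000025397, had 18423 reads and 200.5 to 462.5 TPM. Values of snrpd3l and srsf3a are therefore uncertain, as reads of near-identical sequence may have been shared out in more than one way. srsf7b had 163 reads in all and no more than 1.67 TPM in any library. In addition, 15 of the 59 member symbols that RefSeq's annotation of the GRCz12tu assembly lists overlap another gene there, srsf1a (with rab34a), snrpc and snrnp35 among them. Whether the authors counted reads by strand is not given in the sources used here, so reads of such neighbours may not have been separated.

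The question of the 6 main comparisons was what each knockdown did to endogenous transcripts. Embryos with RfxCas13d knockdown at 50 pg had lower levels of most spliceosome and SR protein mRNAs than their controls. Of the 58 members tested, 46 fell and 2 rose at an adjusted p under 0.05 (edgeR's quasi-likelihood test on TMM-scaled counts, Benjamini-Hochberg over 16321 genes). The background in that comparison was high, since 28.8% of all genes tested were called lower and 30.0% higher. Without the malat1-rich libraries 46 members fell, 44 of them the same genes, and 1 rose, where 27.4% and 28.8% of all genes did. The median log2 fold change was -0.86 over the members and 0.05 over all genes, and 26 members fell by at least 1 on the log2 scale. In 39 members every knockdown library lay below every control library, against 24.8% of all genes. With only the RfxCas13d libraries at 50 pg in the fit, 35 members fell and 1 rose, where 21.2% and 23.6% of all genes did.

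How far these genes fell depended on how the libraries were scaled. Scaling by library size alone moved the median of all genes to 0.64, and the TPM scale moved it to 0.60. Of all genes called, 51.1% were higher with TMM scaling, 74.5% by library size and 79.6% in TPM. Called lower and higher were 15.5% and 45.2% of all genes by library size, and 12.6% and 49.4% in TPM. On these scales 28 members were lower and 8 higher by library size (median -0.30), the higher ones including snrnp35 (1.89), PRPF4B (1.92) and prpf4bb (0.91), and 19 were lower and 11 higher in TPM (median -0.14). Relative to the median of all genes the members' median was -0.91 with TMM scaling, -0.94 by library size and -0.74 in TPM, and 52 of 58 members lay below the median of all genes in each of the 3. Because these are bulk samples, fewer cells of a type and less RNA per cell cannot be told apart. Summed over all 61 IDs, the level was 21853 ± 2215 TPM in knockdown embryos and 25450 ± 4809 TPM in controls (SD, n = 3 each), a difference smaller than the spread between the control libraries.

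**Figure D2:**
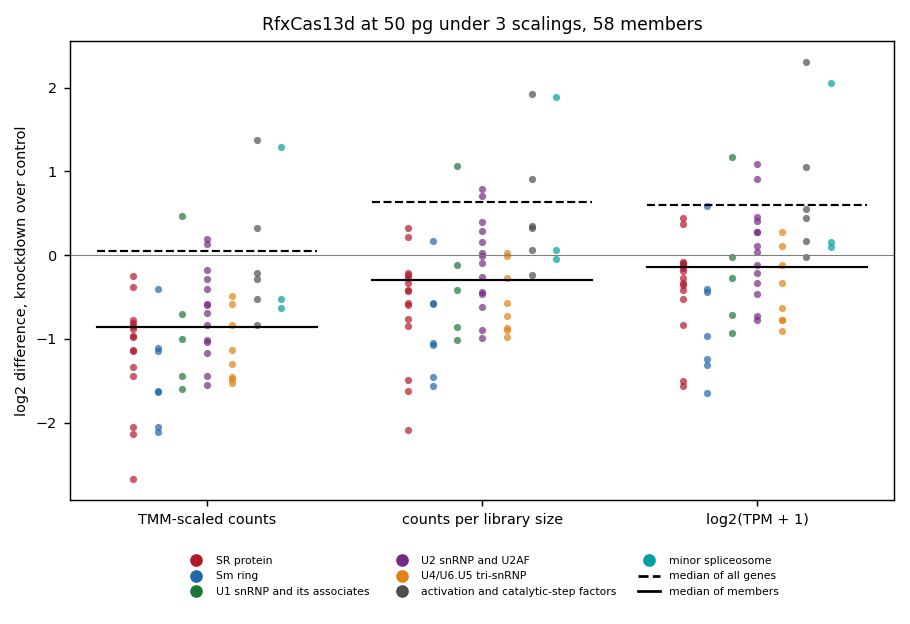
Log2 difference between RfxCas13d knockdown and control embryos at 50 pg for the 58 tested members, under 3 scalings; points are genes coloured by role, the solid line is the members' median and the dashed line the median of all genes. The members' median lies below that of all genes in each, while the side of 0 on which single genes fall changes with the scaling.

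Under TMM scaling 14 of 15 SR proteins fell and none rose. By library size alone srsf6a and srsf7a lay above 0, and srsf6a did so in TPM too. srsf1a, the homologue of an SR protein that promotes U1 binding to the 5′ splice site in mammals, had 734, 599 and 511 CPM in the knockdown libraries, against 1758, 1819 and 1422 CPM in the controls. Every knockdown library lay below every control library. The log2 fold change was -1.44 ± 0.14 (SE; adjusted p = 1.72e-09). srsf3b, the smallest kind of SR protein and one that also assists mRNA export in mammals, had 526, 225 and 269 CPM in knockdown embryos, against 1528, 1442 and 1240 CPM in controls. Again the groups did not overlap, with knockdown replicate 1 the nearest to the controls (-2.05 ± 0.21; adjusted p = 2.1e-09).

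The deepest fall of any member was that of srsf3a (ENSDARG00000025397), which had 28.0, 11.6 and 18.1 CPM in knockdown embryos, against 172, 120 and 79.1 CPM in controls. Its log2 fold change was -2.68 ± 0.40 (adjusted p = 1.71e-06) in counts but -0.84 (limma, adjusted p = 6.72e-06) in TPM, where the knockdown libraries had 228.5, 200.5 and 202.9 TPM and the controls 363.1, 337.7 and 439.1 TPM. Both tables put every knockdown library below every control, and they differ in size.

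The next deepest was srsf2b, with 93.1, 34.2 and 38.4 CPM in knockdown embryos, against 186, 263 and 283 CPM in controls (-2.14 ± 0.23; adjusted p = 6.69e-09). Its more abundant copy srsf2a, whose product binds exonic enhancers, had 1010, 604 and 599 CPM in knockdown embryos, against 1353, 1490 and 1130 CPM in controls (-0.85 ± 0.16; adjusted p = 4.06e-05). The log2 ratio of srsf2a to srsf2b was therefore 3.83 ± 0.36 in knockdown embryos and 2.45 ± 0.43 in controls, with no overlap (exact two-sided permutation p = 0.1, the smallest that 3 against 3 allows).

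A second pair parted in the same way. srsf6a had 697, 630 and 546 CPM in knockdown embryos, against 950, 850 and 643 CPM in controls, and the groups overlapped. srsf6b had 369, 221 and 201 CPM in knockdown embryos, against 583, 596 and 557 CPM in controls, with no overlap. The log2 ratio of srsf6a to srsf6b was 1.29 ± 0.324 in knockdown embryos and 0.474 ± 0.25 in controls (exact p = 0.1). The ratios of the copies of srsf1, srsf3, srsf5 and u2af2 overlapped between the groups (exact p of 0.2 to 0.8, n = 3 each). Ratios without overlap, at the same exact p of 0.1, also occurred with the other effectors. They differed by 0.477 (srsf1) with DjCas13d at 10 pg, and by -0.411 (srsf3), 0.241 (srsf5) and 0.122 (u2af2) at 50 pg. With Cas7-11 at 50 pg they differed by -0.271 (srsf3) and -0.274 (srsf6). The RfxCas13d differences at 50 pg were 1.38 (srsf2) and 0.815 (srsf6).

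Of the remaining SR proteins, srsf10b fell by 1.34 and srsf5a and srsf6b by 1.15 and 1.13 on the log2 scale. The falls of srsf9, srsf5b, srsf1b, srsf11 and srsf4 lay between 0.98 and 0.78. Only srsf7a missed the threshold (-0.25 ± 0.21; adjusted p = 0.31). Scaled by library size alone, its knockdown libraries (804, 605 and 594 CPM) all lay above its controls (452, 584 and 569 CPM).

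All 7 tested proteins of the Sm ring fell under TMM scaling, and this group had the lowest median (-1.62), with snrpd3l above 0 by library size and in TPM. The ring is shared by the U1, U2, U4 and U5 snRNPs. Its largest falls were in 2 of its smallest proteins: snrpf had 89.2, 30.9 and 33.7 CPM in knockdown embryos, against 226, 270 and 169 CPM in controls (-2.11 ± 0.24; adjusted p = 2.08e-08). snrpg had 74.5, 42.2 and 31.4 CPM in knockdown embryos, against 230, 269 and 110 CPM in controls (-2.05 ± 0.27; adjusted p = 1.67e-07). Neither gene's groups overlapped, and the controls of snrpg were themselves spread by more than 2-fold. snrpe and snrpd2 fell by 1.64 and 1.62 on the log2 scale.

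The abundant snrpb had 1269, 544 and 834 CPM in knockdown embryos, against 1468, 1852 and 2383 CPM in controls (-1.11 ± 0.21; adjusted p = 3.35e-05). Here the highest knockdown library stood only a little below the lowest control. The change of snrpd3l was the least of the ring (-0.41 ± 0.16; adjusted p = 0.0318), and that gene is one of those whose counting is uncertain.

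Of the U1 proteins and their associates, 4 fell. snrnp70, the U1-70K protein that binds the first stem-loop of U1 RNA and contacts SR proteins, had 411, 321 and 334 CPM in knockdown embryos, against 861, 997 and 1035 CPM in controls. All 3 knockdown libraries were below all 3 controls, and the log2 fold change of -1.44 ± 0.12 had the smallest adjusted p of any member (1.03e-10). snrpc, which stabilises the pairing of U1 with the 5′ splice site, had 320, 202 and 227 CPM in knockdown embryos, against 757, 844 and 674 CPM in controls (-1.60 ± 0.17; adjusted p = 6.77e-09).

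prpf39, a U1-associated protein in yeast, was lower as well (-1.0 ± 0.17), and so was snrpa, the A protein of U1 (-0.71 ± 0.17).

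**Figure D3:**
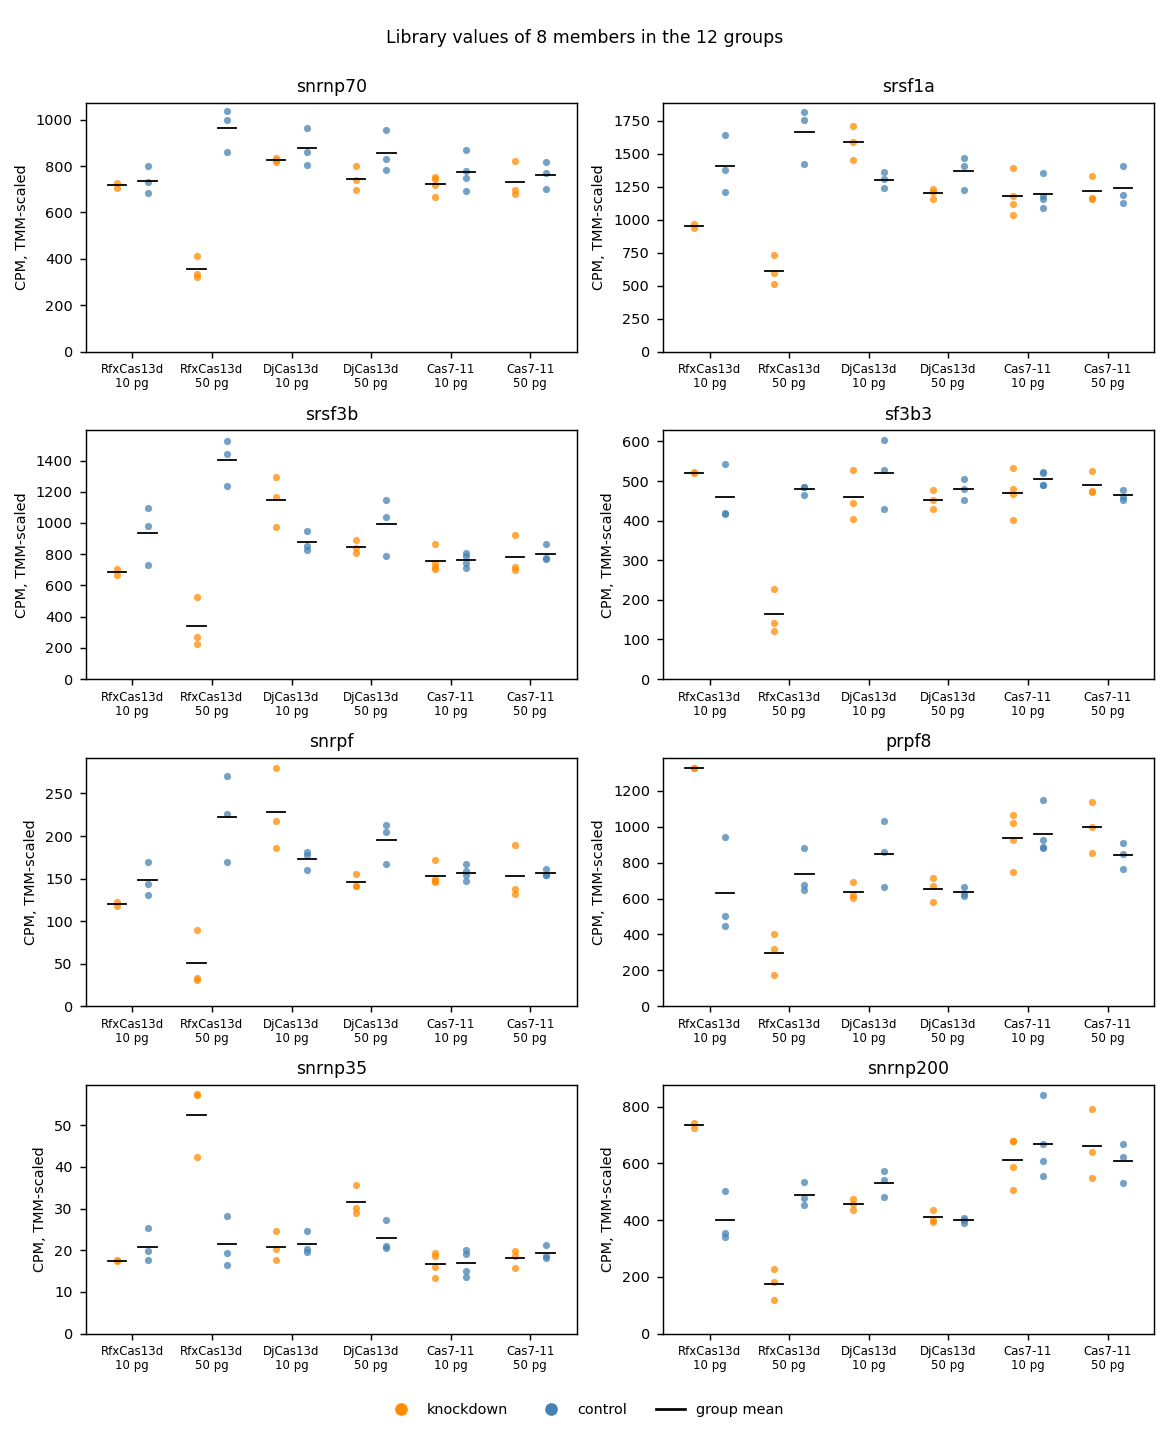
TMM-scaled CPM of 8 members in every library of the 12 groups, with knockdown libraries in orange to the left of their controls in blue and black bars for group means. RfxCas13d knockdown embryos at 50 pg stand apart in 7 of the 8 as the lowest group and in snrnp35 as the highest, while with DjCas13d and Cas7-11 no member shown passed the test.

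Among U2 and U2AF proteins 9 of 14 fell and none rose under TMM scaling, with sf3a1 above 0 by library size and in TPM and sf3b2 and sf3b6 above 0 in TPM. By library size snrpb2 (0.79), sf3a2 (0.70) and snrpa1 (0.39) were called higher. sf3b3, a large scaffold protein of SF3B, had 228, 141 and 122 CPM in knockdown embryos, against 485, 486 and 466 CPM in controls. The controls were close together and the knockdown libraries far below them (-1.55 ± 0.16; adjusted p = 3.93e-09). SF3B1, the SF3B protein that clamps the branch-point helix, had 384, 223 and 204 CPM in knockdown embryos, against 533, 632 and 663 CPM in controls (-1.17 ± 0.19; adjusted p = 4.9e-06).

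Both copies of u2af2, the subunit of U2AF that binds the polypyrimidine tract, were lower, u2af2b with a log2 fold change of -1.45 ± 0.14 and u2af2a with one of -1.04 ± 0.15. sf3a3 followed at -1.02 ± 0.11. The other subunit of U2AF, u2af1, which reads the AG at the intron's end, did not pass (-0.40 ± 0.22; adjusted p = 0.113). Neither did sf3b4, snrpa1, sf3a2 or snrpb2, whose log2 fold changes lay between -0.29 and 0.19. Proteins of 1 complex thus differed in size of change: within SF3A, sf3a3 averaged 282 ± 40 CPM in knockdown embryos and 572 ± 42.6 CPM in controls, whereas sf3a2 averaged 361 ± 82.9 CPM and 329 ± 66.1 CPM (SD, n = 3 each).

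In the tri-snRNP 7 of 8 fell and none rose under TMM scaling, with prpf31 above 0 in TPM. prpf8, the U5 protein at the catalytic centre, had 402, 317 and 176 CPM in knockdown embryos, against 647, 881 and 674 CPM in controls (-1.30 ± 0.23; adjusted p = 1.97e-05). snrnp200, the helicase that unwinds the U4 and U6 RNAs, had 226, 183 and 118 CPM in knockdown embryos, against 479, 535 and 453 CPM in controls (-1.48 ± 0.18; adjusted p = 6.81e-08). Neither gene's groups overlapped. prpf4, a U4/U6 protein, averaged 57.9 ± 27.4 CPM in knockdown embryos and 167 ± 16.4 CPM in controls (-1.53 ± 0.20). snrnp27, whose worm homologue affects the choice of 5′ splice site, had 83.8, 65.2 and 67.9 CPM in knockdown embryos, against 198, 228 and 170 CPM in controls (-1.46 ± 0.18). snrnp40 missed the threshold (-0.49 ± 0.37; adjusted p = 0.254).

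The activation and catalytic-step factors moved least, with a median of -0.26. Of 6 tested, prpf18, prpf19 and prpf38b fell, and the last 2 lay above 0 by library size and in TPM. prpf18, a second-step factor, averaged 23.5 ± 3.2 CPM in knockdown embryos and 41.7 ± 1.14 CPM in controls (-0.83 ± 0.17; adjusted p = 0.000154). prpf38a and prpf4bb did not pass. PRPF4B had 34.6, 76.5 and 50.7 CPM in knockdown embryos, against 4.39, 12.5 and 46.2 CPM in controls, and did not pass in this overlapping pair of groups (1.37 ± 0.61; adjusted p = 0.0536).

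The minor spliceosome proteins went in both directions. snrnp35, a protein of the U11/U12 snRNP that resembles U1-70K, had 42.3, 57.2 and 57.4 CPM in knockdown embryos, against 16.6, 19.4 and 28.2 CPM in controls. Every knockdown library lay above every control library (1.29 ± 0.20; adjusted p = 3.21e-06), and the call held in the 8 alternative fits and in the 6 fits that each left out 1 library of this comparison. snrnp25 had 13.9, 13.3 and 13.9 CPM in knockdown embryos, against 19.3, 19.8 and 24.7 CPM in controls (-0.63 ± 0.21; adjusted p = 0.0115). snrnp48 was lower too (-0.53 ± 0.19; adjusted p = 0.0162). By library size snrnp48 lay above 0, and in TPM both did.

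**Figure D4:**
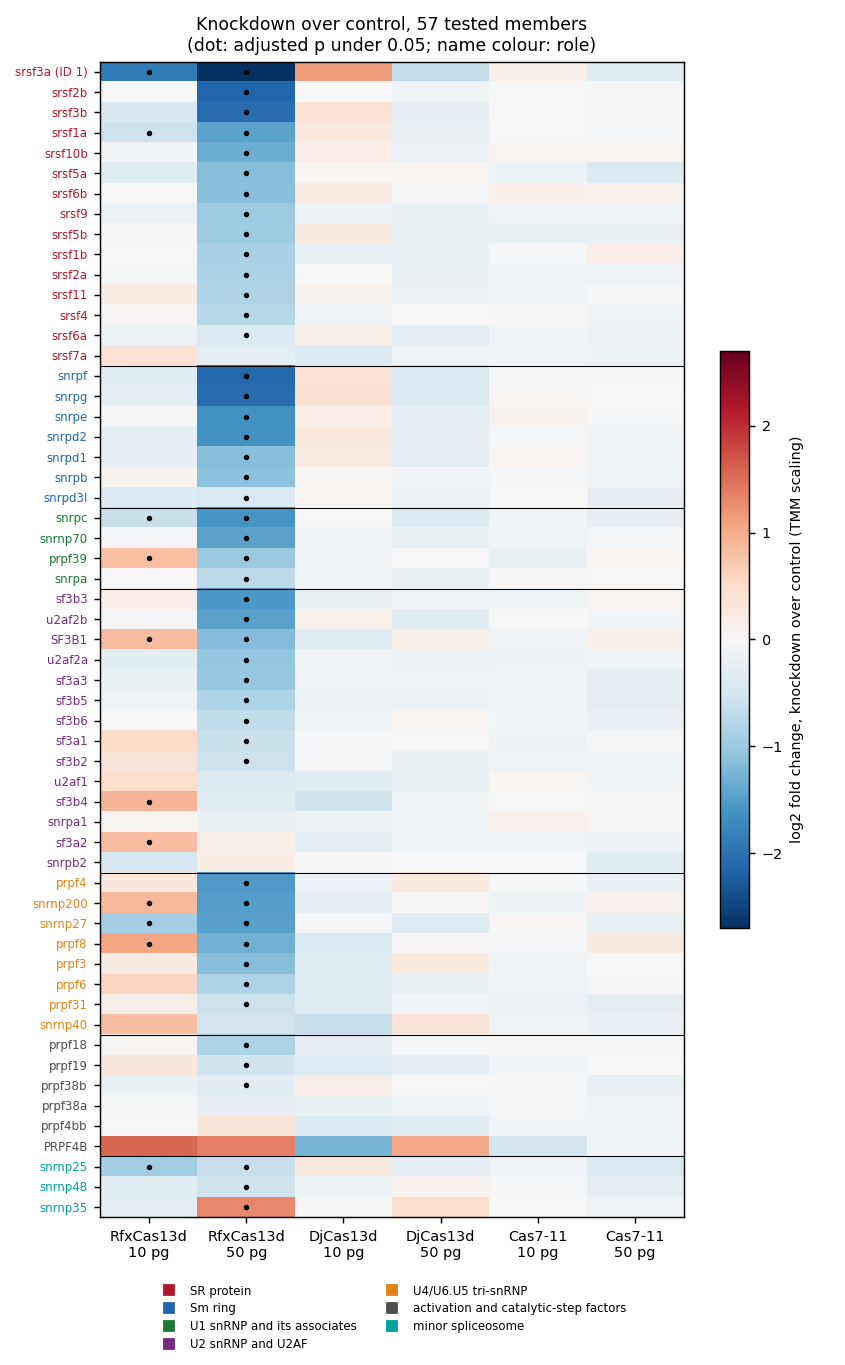
Log2 fold change of knockdown over control for 57 of the 58 tested members (rows, grouped by role and ordered by the RfxCas13d change at 50 pg) in the 6 comparisons (columns), with TMM scaling; blue is lower in knockdown embryos, and dots mark an adjusted p under 0.05. The column of RfxCas13d at 50 pg holds 47 dots, that at 10 pg holds 11, and the DjCas13d and Cas7-11 columns hold none; by library size alone some weakly blue members of the 50 pg column lie above 0.

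At 10 pg of GFP the RfxCas13d response was smaller and went both ways. Of the 58 members 5 fell (8.62%) and 7 rose (12.1%), where 6.98% and 7.0% of all genes were called lower and higher, and the members' median was -0.01. The 5 that fell were snrnp27, snrnp25, snrpc, srsf1a and srsf3a, and all 5 also fell at 50 pg. srsf1a had 968 and 940 CPM in knockdown embryos, against 1644, 1210 and 1380 CPM in controls (-0.57 ± 0.16; adjusted p = 0.0197). snrnp27 had 90.2 and 94.96 CPM in knockdown embryos, against 189, 155 and 189 CPM in controls (-0.94 ± 0.20; adjusted p = 0.00464). srsf3a, with the uncertain counting given above, had 25.6 and 24.8 CPM in knockdown embryos, against 133, 39.2 and 110 CPM in controls (-1.90 ± 0.45; adjusted p = 0.00837).

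Among the 7 that rose were prpf8 and snrnp200 of U5, sf3b4, SF3B1 and sf3a2 of U2, and the U1 associate prpf39. prpf8 had 1326 and 1324 CPM in knockdown embryos, against 501, 945 and 448 CPM in controls (1.07 ± 0.25; adjusted p = 0.00733). sf3b4 had 374 and 351 CPM in knockdown embryos, against 129, 308 and 141 CPM in controls (0.91 ± 0.30; adjusted p = 0.0389). In both genes the 2 low controls were the malat1-rich replicates 1 and 3. Control replicate 2 lay near the knockdown libraries for sf3b4 and about midway for prpf8. Over all 37 libraries sf3a2 had 153 to 270 CPM in the 5 malat1-rich libraries and 275 to 447 CPM in the other 32, and sf3b4 had 129 to 185 CPM against 148 to 384 CPM. Across the 58 members the 10 pg change was also set against the ratio of malat1-rich to other libraries among these controls. The Spearman correlation was -0.85, but both measures use the same control libraries, so they are linked by construction. The part of the malat1-rich libraries in these differences was not tested beyond leaving them out.

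Leaving out the malat1-rich libraries leaves 1 control at 10 pg, so that fit takes the spread from the other groups and its calls are not read here. The log2 fold changes in it were smaller in size than with all libraries. They were -0.75 ± 0.27 for snrnp27, -0.35 ± 0.21 for srsf1a, -0.64 ± 0.38 for srsf3a, 0.48 ± 0.31 for prpf8 and 0.23 ± 0.27 for sf3b4. With only the RfxCas13d libraries at 10 pg, 2 against 3, no member passed, and 0.0% of all genes did in either direction. The absence of calls there is therefore not particular to the members. The values were near those with all libraries in the fit (-0.97 ± 0.16 for snrnp27 and 1.04 ± 0.31 for prpf8). Leaving out knockdown replicate 1 gave 0 lower and 0 higher, and knockdown replicate 2 gave 0 and 1 (prpf39). Without control replicate 1, 2 or 3 the counts were 1 lower and 2 higher, 6 and 12, and 2 and 2. The shares of all genes called in these fits with 1 library left out are not given here, so the counts have no background beside them. The markers snrnp70 (-0.04 ± 0.14), srsf3b (-0.44 ± 0.22) and sf3b3 (0.18 ± 0.18) did not pass at this dose. In TPM, where the median of all genes was 0.24, 2 members were lower and 15 higher, and 3.73% and 16.4% of all genes were. Of all genes called 81.5% were higher in TPM, against 50.1% with TMM scaling and 63.8% by library size. With the replicate number as a block only snrnp27 was lower and snrnp200 higher, where 1.13% and 0.999% of all genes were.

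Across the doses prpf8, snrnp200, SF3B1 and prpf39 were called higher at 10 pg and lower at 50 pg. Their calls at 10 pg have the limits given above, and were lost with only the libraries of that dose in the fit. No member was called lower at 10 pg and higher at 50 pg. The difference between the responses, 50 pg minus 10 pg, passed for 39 members in the lower direction and 1 in the higher, where 20.9% and 19.8% of all genes did. By adjusted p the first were snrnp200 (-2.36 ± 0.27, adjusted p = 3.4e-07), snrnp70 (-1.40 ± 0.18, adjusted p = 1.31e-06) and prpf39 (-1.82 ± 0.25, adjusted p = 2.13e-06). For snrnp200 and prpf39 the difference includes their rise at 10 pg, with its limits. snrnp35 was the 1 in the other direction (1.55 ± 0.31; adjusted p = 0.00024), with 17.4 and 17.6 CPM in 10 pg knockdown embryos, against 19.8, 17.7 and 25.2 CPM in their controls. By library size alone 23 were lower and 3 higher, where 12.3% and 28.8% of all genes were. With only the RfxCas13d libraries in the fit 22 were lower and 1 higher, where 11.2% and 13.2% of all genes were. Leaving out the malat1-rich libraries leaves 1 control at 10 pg. The members' median difference was then -0.77, against 0.03 over all genes.

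**Figure D5:**
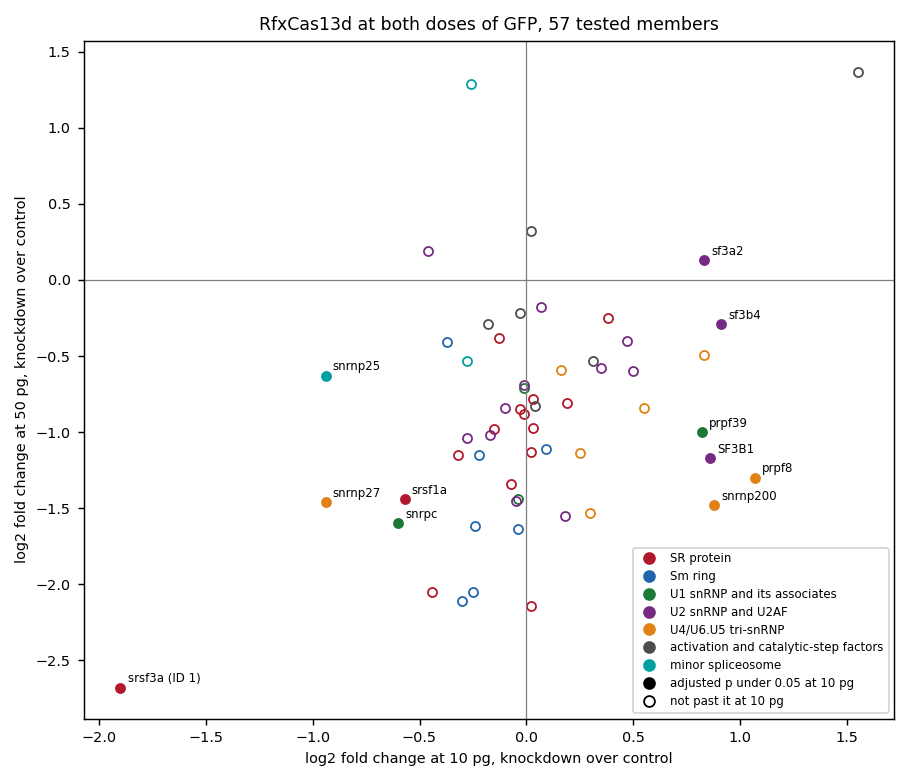
Log2 fold change of 57 of the 58 tested members with RfxCas13d at 10 pg (x axis) and 50 pg (y axis), with TMM scaling; filled points passed at 10 pg. Most points lie below 0 on the y axis and on both sides of 0 on the x axis, with prpf8, snrnp200, SF3B1 and prpf39 at the lower right and srsf3a at the lower left.

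With DjCas13d no member passed at either dose. At 10 pg 0.0% of all genes were called in either direction and 4 members had an unadjusted p under 0.05 (DESeq2 also called 0 members). At 50 pg 0.00613% of genes were called lower and 0.0% higher, and 2 members had an unadjusted p under 0.05 (DESeq2 0). The largest differences at 50 pg were those of PRPF4B (1.02 ± 0.59) and srsf3a (-0.64 ± 0.37). snrnp35 had 28.9, 30.2 and 35.8 CPM in DjCas13d knockdown embryos at 50 pg, against 27.2, 20.5 and 21.0 CPM in controls (0.46 ± 0.20; unadjusted p = 0.0283, adjusted p = 0.497). srsf1a had 1213, 1160 and 1235 CPM in knockdown embryos at 50 pg, against 1406, 1472 and 1223 CPM in controls, and the groups overlapped.

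At 10 pg the largest DjCas13d differences were those of PRPF4B (-1.26 ± 0.60; adjusted p = 0.313) and srsf3a (1.16 ± 0.38; adjusted p = 0.194), both opposite in sign to those at 50 pg. The result at 10 pg rested on knockdown replicate 3. Without it, which leaves the 2 malat1-rich knockdown libraries, 9 members were lower and 1 higher. The lower ones included PRPF4B (-2.18 ± 0.70; adjusted p = 0.0357), snrnp40 (-1.33 ± 0.37; adjusted p = 0.0199) and sf3b4 (-1.01 ± 0.27; adjusted p = 0.0148), and the higher one was srsf3a (1.53 ± 0.36; adjusted p = 0.00867). With only the DjCas13d libraries at 50 pg in the fit, snrpc (-0.37), snrpf (-0.41) and srsf3a (-0.64) were lower and PRPF4B (1.03) was higher, with adjusted p of 0.0134 to 0.0327. These were 3 and 1 of 58 members, in a fit that called 3.75% of all genes lower and 3.84% higher. For the fit without knockdown replicate 3 at 10 pg the share of all genes called is not given here.

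With Cas7-11, the most deeply sequenced effector, no member passed either. At 10 pg 0.0674% of genes were called lower and 0.00613% higher, and 0 members had an unadjusted p under 0.05 (DESeq2 0). At 50 pg 0.0613% were called lower and 0.0% higher, and 3 members had an unadjusted p under 0.05 (DESeq2 0). The differences were small throughout, from -0.52 (PRPF4B) to 0.14 (srsf6b) at 10 pg and from -0.42 (snrnp25) to 0.24 (prpf8) at 50 pg. snrnp70 had 666, 720, 746 and 754 CPM in knockdown embryos at 10 pg, against 691, 748, 871 and 780 CPM in controls. At 50 pg it had 679, 695 and 823 CPM in knockdown embryos, against 701, 771 and 816 CPM in controls. The groups overlapped at both doses. At 10 pg the knockdown library was the lower in all 4 same-numbered pairs, with log2 ratios of -0.22 to -0.05, and snrnp70 did not pass with the replicate number as a block either.

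Set against the other effectors at 50 pg, the RfxCas13d response of these genes was lower. The labelled dose was the same, but GFP in the control embryos was not. It averaged 12280 ± 8958 TPM for RfxCas13d, 8805 ± 1445 TPM for DjCas13d and 1094 ± 342 TPM for Cas7-11 (SD, n = 3 each). The part of this difference in the comparisons was not tested. RfxCas13d minus DjCas13d passed for 35 members in the lower direction and 2 in the higher, where 17.5% and 15.8% of all genes did. The smallest adjusted p values were those of snrnp70 (-1.24 ± 0.17; adjusted p = 4.99e-06), sf3b3 (-1.47 ± 0.23; adjusted p = 1.56e-05) and prpf4 (-1.79 ± 0.28; adjusted p = 1.69e-05). snrnp35 (0.83 ± 0.29; adjusted p = 0.0247) and prpf4bb (0.61 ± 0.22; adjusted p = 0.0339) differed in the higher direction.

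RfxCas13d minus Cas7-11 passed for 37 members in the lower direction and 1 in the higher, where 22.6% and 22.7% of all genes did. It was led by snrnp70 (-1.38 ± 0.17; adjusted p = 4.49e-07), sf3b3 (-1.63 ± 0.23; adjusted p = 1.82e-06) and srsf3b (-2.0 ± 0.28; adjusted p = 2.56e-06), and snrnp35 was again higher (1.40 ± 0.28; adjusted p = 0.000204). By library size alone the counts were 23 lower and 4 higher against DjCas13d, where 9.5% and 26.3% of all genes were. Against Cas7-11 they were 20 and 6, where 1964 of 16321 genes were lower and 5796 (35.5%) higher. In TPM they were 17 and 4 against DjCas13d (7.98% and 29.6% of all genes), and 15 and 7 against Cas7-11 (9.44% and 36.9%). Without the malat1-rich libraries they were 36 and 1 (17.4% and 16.5% of all genes), and 37 and 1 (21.8% and 22.8%). Both comparisons, and that of the doses, use the same 6 RfxCas13d libraries at 50 pg. No member passed in DjCas13d minus Cas7-11, nor in the dose comparisons of DjCas13d and Cas7-11, where no more than 0.00613% of all genes did in either direction (edgeR; DESeq2 called srsf3a in the DjCas13d dose comparison, adjusted p = 0.0483).

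Genes of the splicing pathway outside the name rule were read from 7 lists in the same fit at 50 pg of GFP with RfxCas13d, where the background was 28.8% lower and 30.0% higher. Of 31 other U1 and splice-site factors 23 fell and 3 rose (median -0.75). Of 25 other tri-snRNP, B complex and LSm factors 18 fell and 2 rose (-0.69), and of 33 Prp19 complex and catalytic-step factors 23 fell and 1 rose (-0.59). Of 45 hnRNP and other splicing regulators 30 fell and 5 rose (-0.79). Scaled by library size, with all genes at a median of 0.64, the numbers lower and higher were 11 and 8, 6 and 6, 9 and 7, and 20 and 10. With that scaling 15.5% of all genes were called lower and 45.2% higher.

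LSm proteins form a ring like that of the Sm proteins, on U6 RNA. The genes with the smallest adjusted p there moved in opposite directions: lsm6 averaged 37.9 ± 15.1 CPM in knockdown embryos and 146 ± 16.2 CPM in controls (-1.94 ± 0.20), while lsm4 averaged 139 ± 42.2 CPM and 33.0 ± 3.34 CPM (2.08 ± 0.17; adjusted p = 4.84e-11). rbm8a, of the exon junction complex, fell by 1.76, and isy1, of the catalytic spliceosome, fell by 1.28. elavl1a, which stabilises mRNAs, and hnrnpd fell by 1.30 and 1.65.

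The other 3 lists were mixed. Of 8 minor spliceosome factors 3 fell and 3 rose (median 0.16), with rnpc3 at -1.20 ± 0.17 and scnm1 at 1.94 ± 0.23. Of 17 genes of the SR protein kinases, phosphatase and import 8 fell and 2 rose (-0.39), with the kinase clk4b at -2.04 ± 0.21 and scaf11 at -1.75 ± 0.16. Of 17 genes of the SMN complex and snRNP assembly 5 fell and 6 rose (-0.03). Among them kpnb1, an importin, averaged 175 ± 45.8 CPM in knockdown embryos and 601 ± 26.4 CPM in controls (-1.78 ± 0.16), and phax, the export adaptor of snRNAs, averaged 88.4 ± 30.3 CPM and 25.0 ± 6.14 CPM (1.82 ± 0.20; adjusted p = 8.82e-09). By library size alone the counts lower and higher in the 3 lists were 2 and 4, 4 and 6, and 1 and 10. The shares of all genes called were then 15.5% and 45.2%.

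At 10 pg with RfxCas13d, where 6.98% and 7.0% of all genes were called lower and higher, the other U1 and splice-site list had 5 lower and 2 higher of 31 genes and the tri-snRNP, B complex and LSm list 4 and 2 of 25. The Prp19 complex and catalytic-step list had 1 and 1 of 33, the hnRNP and regulator list 1 and 1 of 45, the minor spliceosome list 2 and 0 of 8, the SR kinase, phosphatase and import list 5 and 4 of 17, and the SMN and assembly list 2 and 1 of 17. Among them eftud2, the U5 GTPase that partners prpf8, averaged 375 ± 0.737 CPM in knockdown embryos and 177 ± 77.5 CPM in controls (1.08 ± 0.25; adjusted p = 0.00733). Without the malat1-rich libraries, which leaves 1 control at this dose, its log2 fold change was 0.49 ± 0.29. With DjCas13d no gene of the lists was called at either dose, and with Cas7-11 1 gene of the lists was called at both doses. hnrnpm, an hnRNP that regulates alternative splicing, averaged 633 ± 35.6 CPM in knockdown embryos and 1250 ± 104 CPM in controls at 10 pg (-0.98 ± 0.15; adjusted p = 0.000681). At 50 pg it averaged 656 ± 53.7 CPM in knockdown embryos and 1190 ± 76.7 CPM in controls (-0.86 ± 0.17; adjusted p = 0.0314). The call at 50 pg was lost in each of the 6 fits that left out 1 library (adjusted p = 0.0807 to 0.312), with the replicate number as a block (adjusted p = 0.208) and in TPM (limma, adjusted p = 0.778).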

How the data were processed

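RNA of 37 whole-embryo libraries was analysed from the authors' deposited tables: per gene, whole-number read counts, not normalized, and TPM, which sum to about the same total in each library. Per the labels' protocols, TRIzol was used for total RNA and the NEBNext Ultra II Directional kit for libraries. The genome build was danRer11, per the submitters' processing notes. Neither the aligner nor the way of counting is given in the sources used here.

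GFP, listed in 23 of the 37 count tables, was left out of the counts and tested in TPM only. Rows that name no gene, 17.29% to 26.41% of each table's reads, stayed out of library sizes and tests. Genes that passed edgeR's filterByExpr on the 12 groups (16321) entered 1 fit of all libraries with edgeR 4.0.16 (TMM scaling, robust quasi-likelihood test, 1 coefficient per group; biological coefficient of variation 0.253). Each comparison's p-values got a Benjamini-Hochberg adjustment across those genes, and the threshold was 0.05. A difference of responses is the contrast of 2 log2 fold changes in the same fit. Standard errors are the log2 fold change over the square root of the F statistic. CPM values are scaled by the TMM library sizes. Ratios of gene copies used log2(CPM + 0.5) and exact permutation tests. The script was checked on simulated counts.

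Alternatives were scaling by library size or by RLE size factors, no filter, a block for the replicate number, leaving out the malat1-rich libraries, a fit of the compared groups only, DESeq2 1.42.0, limma 3.58.1 on log2(TPM + 1), and leaving out each library. Same-numbered knockdown and control libraries deviated together from their group means, in every pair, only for Cas7-11 at 10 pg (correlations across genes of 0.51, 0.34, 0.28 and 0.41). Different numbers deviated together there too, 1 with 2 (0.41 and 0.18) and 3 with 4 (0.29 and 0.45), so the data do not single out the pairs by number. The rule used counts the numbers as pairing those samples, because every same-numbered correlation was over 0.1. The fit of all libraries and the permutation tests, that of GFP included, nevertheless used no pairing. The block was an alternative only, and changed no call of a member in that comparison.

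The members, the lists and the rules for naming genes were chosen with earlier results of these data known. Text names, of the members past the threshold, the 3 with the largest rise and fall per comparison, and also the markers snrnp70, srsf1a, srsf3b and sf3b3, the 3 with the smallest adjusted p in each difference of responses, members called in opposite directions, the 5 highest and 5 lowest levels, gene copies, and up to 2 genes per list and comparison. Other members are named by role, and 1 member, included in the counts, is not reported here.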

Additional observations from a re-analysis of the deposited data

Results flagged for a closer look

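The responses of these genes to RfxCas13d differed from the other responses they were set against. Between its doses 39 members were lower at 50 pg than at 10 pg relative to control and 1 was higher. Of all genes 20.9% and 19.8% were. Leading were snrnp200 (-2.36), snrnp70 (-1.40) and prpf39 (-1.82), with snrnp35 (1.55) in the other direction. By library size 23 and 3 were called, with 12.3% and 28.8% of all genes, and in TPM 25 and 3, with 12.5% and 28.7%. Against DjCas13d at 50 pg 35 were lower and 2 higher, where 17.5% and 15.8% of all genes were. Leading were snrnp70 (-1.24), sf3b3 (-1.47) and prpf4 (-1.79), with snrnp35 (0.83) and prpf4bb (0.61) higher. By library size 23 and 4 were called, with 9.5% and 26.3% of all genes, and in TPM 17 and 4, with 7.98% and 29.6%. Against Cas7-11 at 50 pg 37 were lower and 1 higher, where 22.6% and 22.7% of all genes were. Leading were snrnp70 (-1.38), sf3b3 (-1.63) and srsf3b (-2.0), with snrnp35 (1.40) higher. By library size 20 and 6 were called, with 1964 of 16321 genes lower and 5796 (35.5%) higher. In TPM 15 and 7 were called, with 9.44% and 36.9% of all genes. All values are differences of log2 fold changes in edgeR's quasi-likelihood fit, and the 3 comparisons share the RfxCas13d libraries at 50 pg.

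In the Cas7-11 groups of 4 libraries at 10 pg, 120 sets of 4 values were examined, and the sets share these libraries. In 3 of the sets a single library stood away from the other 3. These were sf3b4 in control replicate 3 (352 CPM), and srsf5b (140 CPM) and snrpf (172 CPM) in knockdown replicate 2. Chance gives such a gap in about 1 of 20 sets, and 3 of 120 is below that rate.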

How the results depend on the processing

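Of the members' counts and GFP's differences, 400 values under an alternative stayed within 1.5 times or kept their call and 67 counts moved. Of the values of single genes and gene copies 2729 kept direction and call, 398 kept the direction but missed the threshold, 1 newly passed, 18 ratios moved and 25 changed sign. For the members lower and higher with RfxCas13d at 10 pg (5 and 7) the replicate block gave 1 and 1. The compared groups alone gave 0 and 0, and TPM 2 and 15. The shares of all genes were 1.13% and 0.999%, 0.0% and 0.0%, and 3.73% and 16.4%. Leaving out the malat1-rich libraries leaves 1 control at this dose, and is described above. At 50 pg (46 and 2) library size gave 28 and 8, TPM 19 and 11, RLE 43 and 4, and DESeq2 43 and 4. The shares of all genes were 15.5% and 45.2%, 12.6% and 49.4%, 27.1% and 31.9%, and 28.1% and 32.9%. There the compared groups alone gave 35 and 1, where 21.2% and 23.6% of all genes were called. Leaving out the malat1-rich libraries gave 46 and 1, where 27.4% and 28.8% were. For DjCas13d at 50 pg the compared groups alone gave 3 and 1, where 3.75% and 3.84% of all genes were called. For the difference between RfxCas13d doses (39 and 1) library size gave 23 and 3, and TPM 25 and 3. The compared groups alone gave 22 and 1. The shares of all genes were 12.3% and 28.8%, 12.5% and 28.7%, and 11.2% and 13.2%. RLE, DESeq2 and no filter gave 2 higher, where 21.1%, 22.6% and 10.2% of all genes were. For the DjCas13d doses DESeq2 gave 1 lower, where 0.698% of all genes were lower and 0.766% higher. For RfxCas13d minus DjCas13d (35 and 2) library size gave 23 and 4, TPM 17 and 4, and the compared groups alone 28 and 0. The shares of all genes were 9.5% and 26.3%, 7.98% and 29.6%, and 14.3% and 13.7%. In the same comparison no filter gave 34 and 0, the replicate block 35 and 1, and leaving out the malat1-rich libraries 36 and 1. The shares of all genes were 8.9% and 7.73%, 17.3% and 14.9%, and 17.4% and 16.5%. For RfxCas13d minus Cas7-11 (37 and 1) library size gave 20 and 6, TPM 15 and 7, and the compared groups alone 29 and 1. By library size 1964 of 16321 genes were lower there and 5796 (35.5%) higher. The shares of all genes were 9.44% and 36.9% in TPM, and 18.1% and 19.1% with the compared groups alone. The cause of these shifts was not tested, other than that the compared groups alone are fewer samples. With the replicate block RfxCas13d at 50 pg gave 46 lower and 3 higher, where 28.2% and 29.3% of all genes were. Outside Cas7-11 at 10 pg the libraries share only a number, and not every pair deviated together.

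Leaving out 1 library gave these ranges of members lower and higher: RfxCas13d at 10 pg 0 to 6 and 0 to 12, at 50 pg 40 to 47 and 1 to 4, DjCas13d at 10 pg 0 to 9 and 0 to 1, RfxCas13d doses 35 to 44 and 1 to 2, DjCas13d doses 0 to 2 and 0 to 3, RfxCas13d minus DjCas13d 30 to 40 and 0 to 3, and RfxCas13d minus Cas7-11 33 to 39 and 1 to 3. Both DjCas13d ranges reach their upper ends without knockdown replicate 3 at 10 pg. For all the fits that left out 1 library, the shares of all genes called are not given here. At 50 pg with RfxCas13d 4 were higher without knockdown replicate 1 or control replicate 3, and 1 without control replicate 1 or knockdown replicate 2. The GFP log2 difference ranged from -8.12 to -6.76 and -6.32 to -5.13 with RfxCas13d at 10 and 50 pg, -8.66 to -7.41 and -7.96 to -7.06 with DjCas13d, and -2.53 to -2.20 and -2.32 to -1.86 with Cas7-11.

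Signs that changed among the markers and the members called in a comparison, as log2 fold changes. RfxCas13d at 10 pg: snrnp70 was 0.07 by library size, 0.24 in TPM, and -0.09 to 0.01 with 1 library left out (above 0 without control replicate 2), srsf1a 0.12 in TPM, and sf3b3 -0.07 without the malat1-rich libraries. At 50 pg by library size prpf19 was 0.06, prpf38b 0.32, sf3a1 0.02, snrnp48 0.06, snrpd3l 0.17 and srsf6a 0.22. In TPM prpf19 was 0.17, prpf31 0.11, prpf38b 0.44, sf3a1 0.28, sf3b2 0.11, sf3b6 0.04, snrnp25 0.10, snrnp48 0.16, snrpd3l 0.58 and srsf6a 0.37. For RfxCas13d minus Cas7-11, sf3a1 was 0.05 by library size and 0.27 in TPM, and sf3b2 0.04 and 0.13. RfxCas13d and DjCas13d libraries had fewer reads than those of Cas7-11, which limits members of few reads such as snrnp25.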
